A study of Mus musculus with 4 samples.

Results

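The CXC chemokine genes Cxcl1, Cxcl2, Cxcl3, Cxcl10 and Cxcl16, were followed in neutrophils of tumors and of blood. They are 5 of the 18894 genes that the deposited tables list, chosen by symbol as CXC ligands of interest in neutrophils. The cells came from FVB mice, an inbred strain, with no further treatment. Each mouse had been injected with Py7160 cells, a mouse mammary tumor line, 2 to 3 weeks before, and its tumor had reached about 1 cm. Blood and tumor were taken from the same 3 mice, so the tissues are not independent animals, and every mouse, including those giving blood, carried a tumor. Tumors were digested with enzymes and blood went through red-cell lysis, after which neutrophils were selected on Ly6G and sorted as CD11b+ Ly6G+ cells. Cells were marked by mouse with hashtag antibodies (antibodies carrying a DNA tag), pooled, and run by Drop-seq, which captures the 3′ ends of mRNA of single cells on barcoded beads and counts molecules by unique molecular identifiers (UMIs). Each tissue was 1 library, so an effect of the tissue cannot be told apart from one of the library or of how cells were freed.

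Barcodes with at least 200 detected genes and at most 15% mitochondrial UMIs were kept, and a cell was given to a mouse where at least 70% of its hashtag counts came from 1 hashtag. This left 841 tumor cells with 572844 UMIs (106, 564 and 171 cells in mice 1, 2 and 3) and 1375 blood cells with 1147068 UMIs (511, 456 and 408 cells). The tumor assignment is uncertain for mouse 2: of its 564 cells, the clustering method HTODemux gave 243 to the same mouse, 35 to another mouse and 286 to none. The RNA tables share 20 barcodes, and 0 of the assigned cells have a barcode that is assigned in both tissues. UMIs of at least 2 of 10 neutrophil markers were held by 719 of the tumor cells (85.5%) and 1363 of the blood cells (99.1%). S100a8 and S100a9 are among these markers and were also found in barcodes with few UMIs, which may hold RNA from outside cells. A tumor cell of 441 UMIs made wholly of such RNA would hold S100a8 in 96.0% and S100a9 in 98.4% of cases. For blood the values were 99.94% and 99.997%. Counts of these markers per cell, here and below, therefore cannot by themselves show that a cell was a neutrophil. In tumor, 44 cells (2, 34 and 8 in mice 1, 2 and 3) carried at least 2 markers of 1 other type, counting neither Ly6c2 nor Ccr2, and in blood 27 cells did. Summed monocyte or macrophage markers (12 of 12 detected in tumor) ran from 482 to 2216 UMIs per 1000000 UMIs of the cells (CPM) over the tumor mice and from 616 to 651 CPM over the blood mice, where C1qa, C1qb and Mrc1 were among 7 genes at 0. Summed erythroid markers were at 0 in tumor and ran from 13960 to 22155 CPM in blood, and their part in the comparisons was not tested.

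Chemokines are small secreted proteins that guide leukocytes through G protein-coupled receptors. Cxcl1, Cxcl2 and Cxcl3 belong to the group with an ELR motif before the CXC cysteines and act on Cxcr2, through which neutrophils are called into inflamed tissue. Neutrophils also make Cxcl2 themselves and so can draw in further neutrophils. Transcription of these genes is driven by NF-kB, downstream of Toll-like and interleukin 1 receptors, and their mRNAs are short-lived because AU-rich elements in the 3′ untranslated region recruit decay proteins such as tristetraprolin (Zfp36). Cxcl10 is an interferon-induced ligand of Cxcr3, which is carried by T and NK cells. Cxcl16 is made as a membrane protein, released by the proteases Adam10 and Adam17, and binds Cxcr6.

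Cxcl3, Cxcl1 and Cxcl2 lie in this order on the plus strand of chromosome 5 within 119836 bases (GENCODE M21 on GRCm38, the build also called mm10). Cxcl3 (ENSMUSG00000029379) spans chr5:90786103-90789600, Cxcl1 (ENSMUSG00000029380) chr5:90891241-90893115 and Cxcl2 (ENSMUSG00000058427) chr5:90903871-90905938. Cxcl10 (ENSMUSG00000034855) lies 1440699 bases further on, on the minus strand at chr5:92346638-92348889. Each of these 4 genes has 4 exons in its principal transcript. Cxcl16 (ENSMUSG00000018920), with 5 exons, lies on the minus strand of chromosome 11 at chr11:70453983-70459984. All 5 are annotated as protein coding.

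The 250 bases before the start of 4 of the 5 members were taken from RefSeq (GRCm38.p6) and are shown because Cxcl1, Cxcl2 and Cxcl3, near each other on chromosome 5, were each high in tumor. Capitals mark matches, on either strand, to a kB-like pattern GGGANNTNCC, the kind of site NF-kB binds, and to an interferon-response pattern GAAANNGAAA. The sequences run 5′ to 3′ towards the gene, for Cxcl1 chr5:90890995-90891244 (plus), Cxcl2 chr5:90903649-90903898 (plus), Cxcl3 chr5:90785851-90786100 (plus) and Cxcl10 chr5:92348890-92349139 (minus).
Cxcl1: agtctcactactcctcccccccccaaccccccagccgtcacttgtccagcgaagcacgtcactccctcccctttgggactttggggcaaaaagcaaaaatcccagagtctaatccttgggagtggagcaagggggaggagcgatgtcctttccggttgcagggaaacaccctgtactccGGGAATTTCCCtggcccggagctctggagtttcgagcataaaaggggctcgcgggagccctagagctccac
Cxcl2: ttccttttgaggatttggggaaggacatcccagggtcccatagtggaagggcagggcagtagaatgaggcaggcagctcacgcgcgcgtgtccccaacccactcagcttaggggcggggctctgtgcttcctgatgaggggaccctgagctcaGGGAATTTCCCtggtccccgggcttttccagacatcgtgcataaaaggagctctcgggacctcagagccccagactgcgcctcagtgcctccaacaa
Cxcl3: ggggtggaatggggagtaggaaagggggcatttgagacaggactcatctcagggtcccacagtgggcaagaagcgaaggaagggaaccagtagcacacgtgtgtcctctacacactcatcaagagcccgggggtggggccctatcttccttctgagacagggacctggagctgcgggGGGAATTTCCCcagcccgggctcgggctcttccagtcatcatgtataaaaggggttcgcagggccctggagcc
Cxcl10: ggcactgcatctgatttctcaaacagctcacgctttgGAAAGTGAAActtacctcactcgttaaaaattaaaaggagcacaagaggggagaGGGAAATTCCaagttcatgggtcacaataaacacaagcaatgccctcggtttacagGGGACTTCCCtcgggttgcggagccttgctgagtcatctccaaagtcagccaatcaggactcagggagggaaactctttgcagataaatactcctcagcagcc
Cxcl1, Cxcl2 and Cxcl3 held the same letters, GGGAATTTCC, where a match on the other strand overlaps the first by all but 1 base. Counted from the RefSeq start of transcription, the capitals run from -71 to -61 in Cxcl1, from -97 to -87 in Cxcl2 and from -73 to -63 in Cxcl3. The RefSeq starts differ from the GENCODE starts given above. The Cxcl2 window, which ends at 90903898, runs past its GENCODE start at 90903871, and that of Cxcl1, which ends at 90891244, past 90891241. Cxcl10 held 2 other kB-like matches, GGGAAATTCC at -159 and GGGACTTCCC at -103, and was the only one of the 4 with an interferon-response match, GAAAGTGAAA at -213. Of 32851 mouse promoter windows of this length, 3.33% held the kB-like pattern, 2.98% the interferon-response pattern and 0.0852% the exact letters GGGAATTTCC. A match describes the letters only.

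The 3′ untranslated regions differed as well. The AU-rich heptamer TATTTAT occurred 6 times in the 592 bases after the stop codon of Cxcl1, 7 times in the 1494 bases of Cxcl2 and 2 times in the 645 bases of Cxcl3, counting overlaps on the transcript strand. It occurred 0 times in the 996 bases of Cxcl10 and the 1421 bases of Cxcl16. Among mouse 3′ untranslated regions within 20% of the length of each, 15.6% held at least 1 match at the length of Cxcl1, 33.5% at that of Cxcl2, 16.9% at that of Cxcl3, 24.4% at that of Cxcl10 and 31.8% at that of Cxcl16. As many matches as in Cxcl1 were held by 0.047% of regions of its length, and as many as in Cxcl2 by 0.21%. The stretches of 30 bases with the most matches, from base 80 after the stop codon in Cxcl1 and base 880 in Cxcl2, show the clustering, with the matches in capitals.
Cxcl1 untranslated stretch: agggtccTATTTATTTATgTATTTATTTAT
Cxcl2 untranslated stretch: actTATTTATTTATctatgTATTTATTTAT
Because the counted reads come from 3′ ends, the similarity of the members bears on their counts. The longest identical stretch was 110 bases between Cxcl2 and Cxcl3, ending 850 bases before the end of the Cxcl3 transcript, and in the 3′ untranslated regions no pair of Cxcl1, Cxcl2 and Cxcl3 shared more than 16 bases. How the authors' counting treated reads that match several genes is not given in the sources used here.

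Of the neutrophil-attracting ligands, Cxcl2 was the most abundant. Its level in tumor was 38181, 26569 and 38789 CPM in mice 1, 2 and 3 (34513 ± 6886, SD, n = 3), and in blood 22.9, 15.8 and 18.2 CPM (19.0 ± 3.62). Every tumor mouse lay far above every blood mouse, and the mice of a tissue differed from each other by much less than the tissues did. Cxcl2 ranked 4 among all genes of the tumor cells by UMIs, behind the ferritin heavy chain gene Fth1 and the calprotectin genes S100a8 and S100a9, with 3.05% of all UMIs. The ratio of the summed tumor cells to the summed blood cells was 1589.9 (95% interval 1049.8 to 2538, counting error only), from 17468 UMIs in tumor and 22 in blood.

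**Figure D1:**
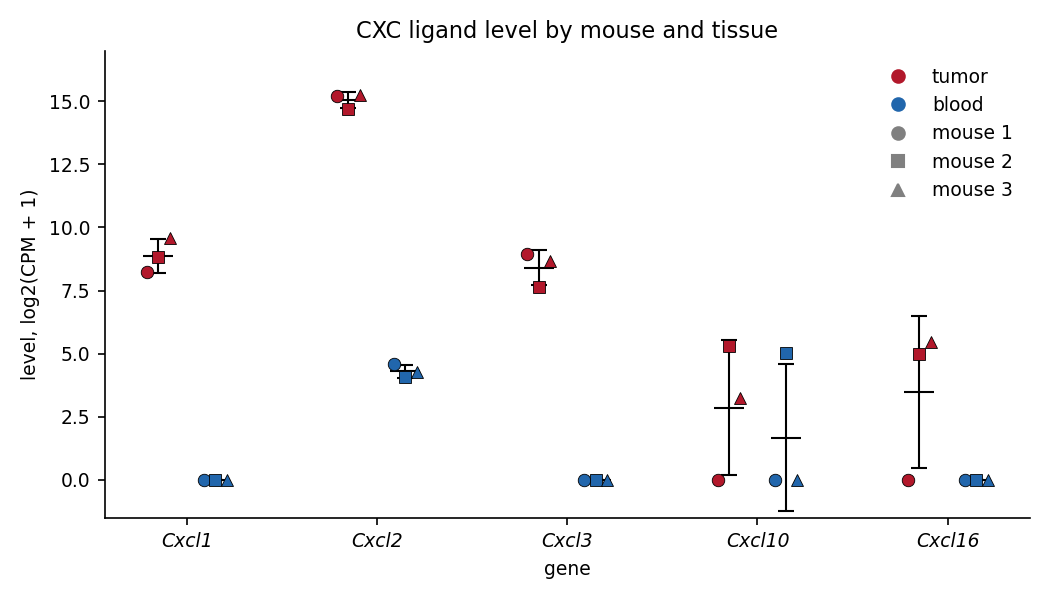
Level of each CXC ligand as log2(CPM + 1) per mouse (circle, mouse 1; square, mouse 2; triangle, mouse 3) in tumor (red) and blood (blue), with the mean and SD of the log values over 3 mice as black bars. Cxcl1, Cxcl2 and Cxcl3 separate the tissues in every mouse, whereas Cxcl10 is at 0 in 1 tumor mouse and 2 blood mice, and Cxcl16 at 0 in 1 tumor mouse and in all of blood.

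Cxcl1 was present in tumor at 297, 449 and 762 CPM in mice 1, 2 and 3 (503 ± 237) and had 0 UMIs in all 3 blood mice. Cxcl3 was present at 496, 197 and 402 CPM (365 ± 153), again with 0 UMIs in blood, whose table does not list it. On this scale of captured molecules, which is not scaled by gene length, the mice overlapped between Cxcl1 and Cxcl3, and both lay below Cxcl2 in every mouse. Against the limit of 3 counts over the summed blood cells, 2.62 CPM, Cxcl1 was at least 189-fold and Cxcl3 at least 105-fold higher in tumor, from 283 and 158 UMIs.

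In the test across all genes (edgeR quasi-likelihood, 3 tumor sums against 3 blood sums, Benjamini-Hochberg adjustment), Cxcl1, Cxcl2 and Cxcl3 passed the filter on low counts and were called higher in tumor. They passed it through their tumor counts alone, so that these calls go one way is set by the filter and nothing is read from their number. The background is wide: 60% of the 3674 genes tested were called, 30.2% higher and 29.8% lower. The mice of these 3 members did not overlap between tissues, which held for 63% of the 3674 genes tested, and 29.8% of those genes had every tumor mouse above every blood mouse. The fitted log2 difference for Cxcl2 was 10.79 (SE 0.20, adjusted p = 1.07e-16, higher in 3 of 3 mice). It was 10.21 for Cxcl1 (SE 0.64, adjusted p = 2.63e-09) and 9.49 for Cxcl3 (SE 0.73, adjusted p = 2.65e-08), where the blood counts of 0 make the fitted size depend on edgeR's prior count. The p-values reflect how mice differed inside each single library. Fewer expressing cells and less RNA per cell cannot be told apart in these sums, and the shares of cells below bear on the first.

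Cxcl10 overlapped between the tissues, and its call depended on the processing. It had 0, 38.9 and 8.56 CPM in tumor mice 1, 2 and 3 and 0, 31.6 and 0 CPM in the blood mice, so the tissues overlapped, and in each tissue 1 mouse held most of the UMIs. That mouse carried hashtag 2 in both, which is not stated to be the same animal. The filter on low counts removed Cxcl10 and Cxcl16, and their values come from the fit of all 16032 genes, in which 16.4% were called, 7.69% higher and 8.71% lower. The log2 difference for Cxcl10 was 1.08 (95% interval -0.20 to 2.36, adjusted p = 0.323, edgeR), from 16 UMIs in tumor and 12 in blood. It was called higher with mice assigned by HTODemux (2.29, adjusted p = 0.011, edgeR) and with at most 10% mitochondrial UMIs (2.00, adjusted p = 0.049). Its sign rested on tumor mouse 2, without which it was -1.30, and without blood mouse 2 it was 5.69 (adjusted p = 7.21e-04).

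Cxcl16 had 0, 31.1 and 42.8 CPM in tumor mice 1, 2 and 3 and 0 UMIs in blood, a difference of at least 11.3-fold for the sums, from 17 UMIs. Mouse 1 of the tumors could not be told from blood, though its 70612 UMIs set its limit of detection at 42.5 CPM, near the level of the other two. The fitted log2 difference was 5.93 (SE 1.22, adjusted p = 1.89e-05, edgeR without the low-count filter, higher in 2 of 3 mice). Without the cells carrying markers of another type it was 3.14 and no longer called (adjusted p = 0.304).

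Of 10 other CXC ligands, 0 passed the low-count filter. Tumor cells held 9 UMIs of Pf4, 8 of Cxcl9, 4 each of Cxcl12 and Cxcl14 and 2 of Cxcl11, and blood cells 8 of Pf4, 7 of Cxcl11 and 5 of Ppbp. Cxcl5, Cxcl13, Cxcl15 and Cxcl17 had 0 in both. Cxcl5, Ppbp, Pf4 and Cxcl15 lie in the same stretch of chromosome 5 as Cxcl1, Cxcl2 and Cxcl3, and none of them was near those 3 in UMIs.

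To count cells with at least 1 UMI at equal depth, every cell was drawn down to 441 UMIs, which left out 209 tumor cells and 254 blood cells. Cxcl2 was found in 97.5%, 89.5% and 94.1% of tumor cells of mice 1, 2 and 3 (93.7% ± 4.03) and in 0.835%, 0.757% and 0.641% of blood cells (0.744% ± 0.0975). Most tumor cells and few blood cells thus held the transcript, and no blood cell had more than 2 UMIs of it, against up to 138 in a tumor cell. Cxcl1 was found in 5.36%, 7.49% and 7.93% of tumor cells (6.93% ± 1.37) and Cxcl3 in 8.69%, 3.26% and 5.14% (5.70% ± 2.76), with 0% in every blood mouse for each. Before thinning, 0 of all 1375 blood cells held either, where 3 cells would be 0.218%, a limit on cells with a UMI and not on cells that express the gene. For each of these 3 genes the lowest tumor mouse exceeded the highest blood mouse, and the exact two-sided permutation test gave p = 0.1, which no design of 3 and 3 mice can go below. Without thinning, 776, 65 and 44 of the 841 tumor cells held Cxcl2, Cxcl1 and Cxcl3 (92.3%, 7.73% and 5.23%).

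**Figure D2:**
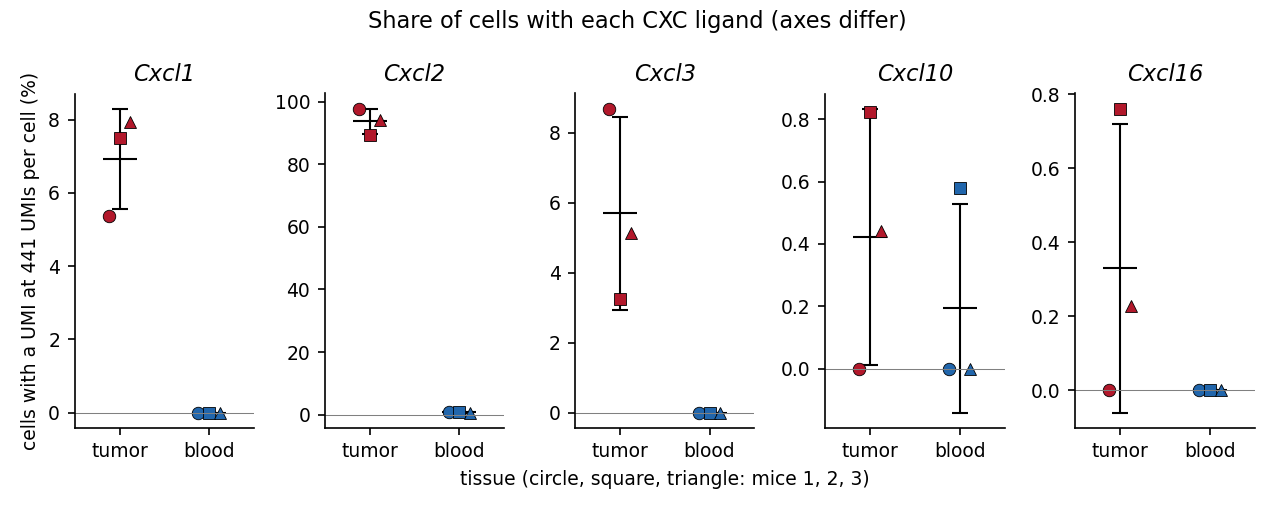
Percent of cells with at least 1 UMI of each gene at 441 UMIs per cell, per mouse, in tumor (red) and blood (blue), with the mean and SD over 3 mice as black bars (bars may run below 0). The vertical axes differ: Cxcl2 reaches 97.5% of tumor cells, Cxcl1 and Cxcl3 stay below 9%, and Cxcl10 and Cxcl16 below 1%.

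The rare members were in few cells. Cxcl10 was found in 0%, 0.823% and 0.443% of tumor cells and 0%, 0.579% and 0% of blood cells at 441 UMIs (exact permutation p = 0.7). Cxcl16 was found in 0%, 0.761% and 0.228% of tumor cells and in 0% of blood cells of each mouse at the same depth (exact permutation p = 0.4). In both cases the tissues overlapped, and the 106 cells of tumor mouse 1 are few for shares of this size.

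RNA in barcodes with few UMIs, which may come from outside cells, limits what a single UMI shows. Whether it came from there or from cells poor in RNA was not tested. Tumor barcodes with 20 to 60 UMIs, too few for a cell by the rule used, held Cxcl2 at 16887 CPM, Cxcl1 at 224 CPM and Cxcl3 at 123 CPM, and the tumor cells were 1.81-fold, 2.21-fold and 2.24-fold above them. A cell made wholly of such RNA would hold a UMI at 441 UMIs in 99.9% of cases for Cxcl2, 9.40% for Cxcl1 and 5.29% for Cxcl3, above the mean shares seen for Cxcl1 and Cxcl2 and close to that for Cxcl3. For Cxcl10 and Cxcl16 the same reckoning gives 0.492% and 0.819%, above their mean shares of 0.422% and 0.330%. The shares therefore do not show which tumor cells expressed these genes. The number of UMIs per cell says more, because a median tumor cell of 572 UMIs would draw 9.66 UMIs of Cxcl2, 0.128 of Cxcl1 and 0.0704 of Cxcl3 from such RNA. Per 1000 UMIs of Cxcl2, the cells held 16.2 of Cxcl1 and 9.05 of Cxcl3, and the barcodes with few UMIs 13.3 and 7.29. The same kind of barcode in blood held 6 UMIs of Cxcl2 and 0 of the others in 246931 UMIs. This gives 1.07% for Cxcl2, beside the 0.744% of blood cells with Cxcl2. The source of the UMIs in those blood cells was not tested. No cell group in the tumor library is known to lack these genes, so a share in such cells cannot be given.

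**Figure D3:**
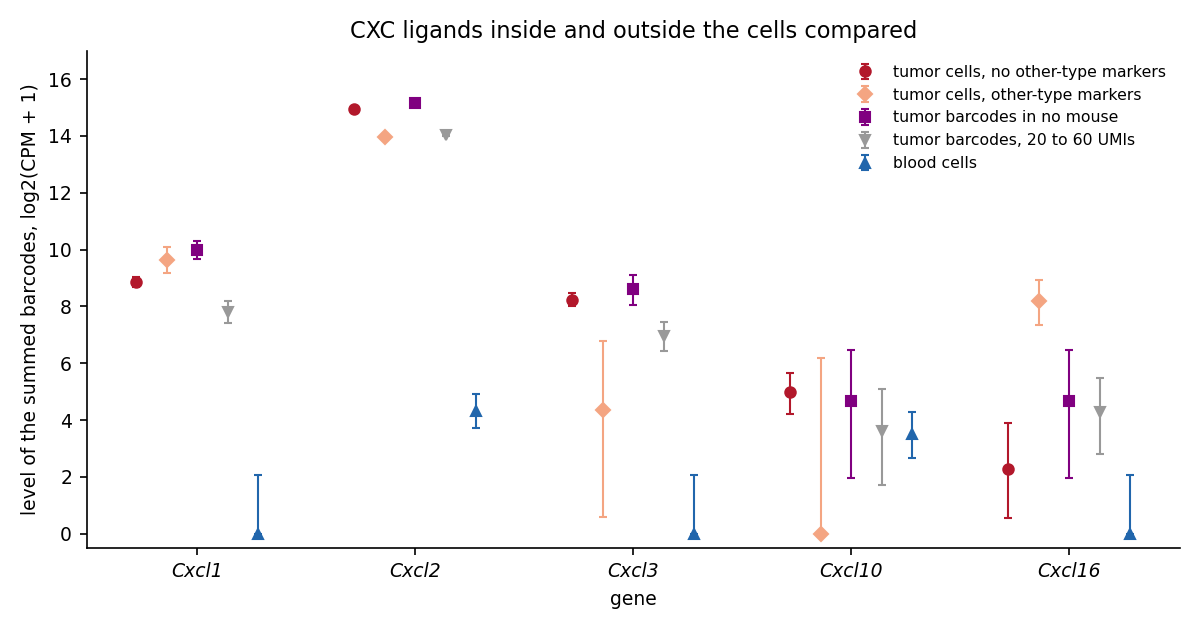
Level of each gene as log2(CPM + 1) over summed barcodes, with 95% Poisson intervals (counting error only), in 797 tumor cells without markers of another type, 44 tumor cells with them, 106 tumor barcodes put in no mouse, tumor barcodes with 20 to 60 UMIs, and 1375 blood cells. Cxcl16 stands highest in the cells with markers of another type, at 292 CPM against 3.84 CPM in the other cells, and Cxcl3 lowest there among the tumor groups.

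Cxcl2 varied over a wide range between tumor cells of the same mouse. The median cell gave 2.77%, 1.48% and 2.82% of its UMIs to Cxcl2 in mice 1, 2 and 3, and the highest cell 19.4%, 20.6% and 17.6%. Mouse 2 was lowest at the median and not at the top. Its median of 8 Cxcl2 UMIs per cell lay below the 9.66 that RNA of barcodes with few UMIs would give a median cell. The 17 UMIs of mice 1 and 3 lay above that value. At the other end 5, 49 and 11 cells held 0 UMIs of Cxcl2. The tenth of cells with the highest Cxcl2 share held 31.4%, 37.8% and 33.3% of the Cxcl2 UMIs (34.2% ± 3.28).

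Cxcl1 and Cxcl3 were concentrated in a small number of cells. Cxcl1 was in 7.73% of tumor cells, where its 283 UMIs spread in proportion to cell depth would reach 27.3%, a ratio of 0.283. For Cxcl3 the values were 5.23% and 16.6%, a ratio of 0.315. Among 811 genes with at least 100 UMIs these ratios ranked 11 and 14 from the most concentrated, and the median gene had a ratio of 0.864, while Cxcl2 at 0.923 ranked 668. The granule protein genes Camp and Ngp ranked 1 and 2, the MHC class II gene H2-Ab1 ranked 3 and the macrophage gene C1qa ranked 10, while Retnlg and Il23a lay between Cxcl1 and Cxcl3.

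**Figure D4:**
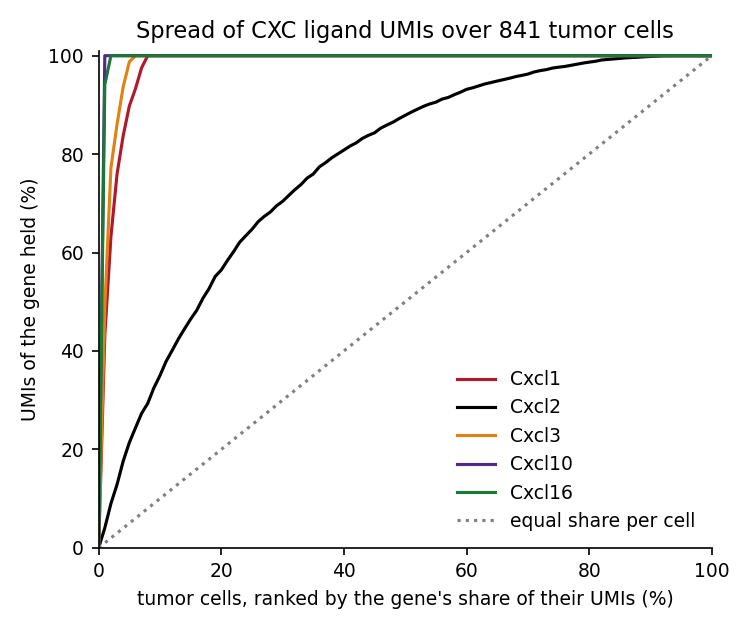
Percent of the UMIs of each gene (vertical) held by the tumor cells ranked from the highest share of that gene (horizontal), over all 841 tumor cells, with the dotted line for an equal share per cell. The curves of Cxcl1, Cxcl3, Cxcl10 and Cxcl16 reach 100% within the first 10% of cells, which follows from their few cells, whereas Cxcl2 rises slowly.

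For Cxcl1, 20 cells with at least 5 UMIs held 198 of the 283 UMIs, up to 21 in 1 cell. They came from all mice (1, 14 and 5 cells in mice 1, 2 and 3), 14 of them had at least 2 neutrophil markers, and 3 carried markers of another type. In these 20 cells Cxcl2 took a median 7.64% of UMIs, against 1.82% in the 776 cells with 0 UMIs of Cxcl1, and summed neutrophil markers stood at 20332 CPM against 87586 CPM. For Cxcl3, 8 cells with at least 5 UMIs held 95 of the 158 UMIs (60.1%), with 2, 3 and 3 cells in the mice. These 8 had a median of 6.46% of UMIs in Cxcl2 and summed neutrophil markers at 109146 CPM, and 1 of them had no neutrophil marker. That sum weighs cells by depth, and 1 of the 8, of mouse 2, had 3353 UMIs. Over all cells with a UMI of Cxcl3, neutrophil markers stood at 114609, 101471 and 27598 CPM in mice 1, 2 and 3. In the cells without it they stood at 78729, 85344 and 75348 CPM, so the direction differed between mice.

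The contrast between the Cxcl1-rich cells and the cells without Cxcl1 held in part for all cells with a UMI of Cxcl1. Cxcl2 stood at 60518, 43264 and 42523 CPM in the cells with Cxcl1 of mice 1, 2 and 3 and at 36916, 25033 and 38148 CPM in the cells without it, higher in each mouse. Summed neutrophil markers stood at 83774, 34273 and 34755 CPM with Cxcl1 and at 82570, 90948 and 79054 CPM without it, lower in mice 2 and 3 and level in mouse 1, which had 5 such cells. Macrophage markers, Ly6c2 and Ccr2 not counted, stood at 264, 3172 and 11215 CPM with Cxcl1 and at 299, 1788 and 531 CPM without it, higher in mice 2 and 3 and not in mouse 1. Of the 296 UMIs in cells with Cxcl1, 192 came from mouse 3, and their part in the result was not tested. Without the 44 cells carrying markers of another type Cxcl1 stood at 307, 441 and 638 CPM in the mice, against 0, 517 and 2031 CPM in those 44, so the higher level in the latter rested on mouse 3.

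Co-detection was counted in 632 tumor cells thinned to 441 UMIs. Every cell with a Cxcl3 UMI also had a Cxcl2 UMI (30 of 30), as did 46 of the 47 cells with Cxcl1, where 28.0 and 43.3 are given by the single shares. This is close to what the near-general presence of Cxcl2 gives. Cxcl1 and Cxcl3 were found together in 5 cells, where the product of their shares within mice gives 2.22 (1, 3 and 1 cells against 0.432, 1.10 and 0.688). Most cells with a UMI of 1 of the pair had no UMI of the other, which at 441 UMIs does not show that the transcript was absent. Of the 10 pairs, 5 were seen together in at least 1 cell, and 4 of those 5 include Cxcl2. Without thinning, 6 cells held both Cxcl1 and Cxcl3, against 3.31 from the shares. These counts are too small to tell the pair from independent genes.

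Tumor cells were then divided by Cxcl2 itself, at the median thinned Cxcl2 count of their mouse (12, 7 and 12.5 UMIs), into 305 cells above and 327 at or below it. This comparison was added after the data had been seen, and Cxcl2 was left out of the sums. In mouse 2 the unthinned median of 8 Cxcl2 UMIs lay below the 9.66 that RNA of barcodes with few UMIs would give a median cell. Such RNA also held Cxcl1 and Cxcl3 (13.3 and 7.29 per 1000 Cxcl2 UMIs), and its part in this division was not tested. With the mouse as a block, 34 of 414 genes tested were called (8.21%), 18 higher in the cells high in Cxcl2 (4.35%) and 16 lower (3.86%). Both Cxcl1 and Cxcl3 were among the 18. Both passed the low-count filter through their counts in the high cells alone. That their calls go this way is therefore set by the filter, and nothing is read from it. Cxcl1 stood at 664, 917 and 1837 CPM in the high cells of mice 1, 2 and 3 and at 56.2, 226 and 71.8 CPM in the low cells. The high cells lay above the low cells in all 3 mice, without overlap, with a log2 difference of 2.63 (SE 0.37, adjusted p = 1.37e-10, edgeR), which was 4.16 without tumor mouse 2. Cxcl3 stood at 1269, 381 and 842 CPM in the high cells and 56.2, 30.8 and 359 CPM in the low cells, higher in each mouse, with a log2 difference of 2.50 (SE 0.46, adjusted p = 3.28e-06), which was 3.84 without tumor mouse 3. With the mice assigned by HTODemux, Cxcl3 was no longer called (1.94, adjusted p = 0.112) and Cxcl1 still was (2.71).

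In cells, 33 of the 305 high cells and 14 of the 327 low cells held a Cxcl1 UMI (10.8% and 4.28%), and 23 and 7 held a Cxcl3 UMI (7.54% and 2.14%). The share of cells with Cxcl3 was 15%, 6.47% and 6.25% in the high cells of mice 1, 2 and 3 and 2.44%, 0.901% and 6.25% in the low cells, equal in mouse 3. All cells had been thinned to the same depth, with a median of 662 UMIs before thinning in the high and 665 in the low cells. Cells with markers of another type made up 13 of the high and 25 of the low cells, and cells with at least 2 neutrophil markers 90.2% and 89.0%. Without cells of another type Cxcl1 was still higher, and Cxcl3 fell to the low-count filter. Cxcl10 had 9 UMIs in the high and 1 in the low cells and Cxcl16 0 and 2, and neither was called (adjusted p = 0.991 for both, edgeR without the low-count filter, which called 0.259% of 10055 genes, 0.149% higher and 0.109% lower).

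**Figure D5:**
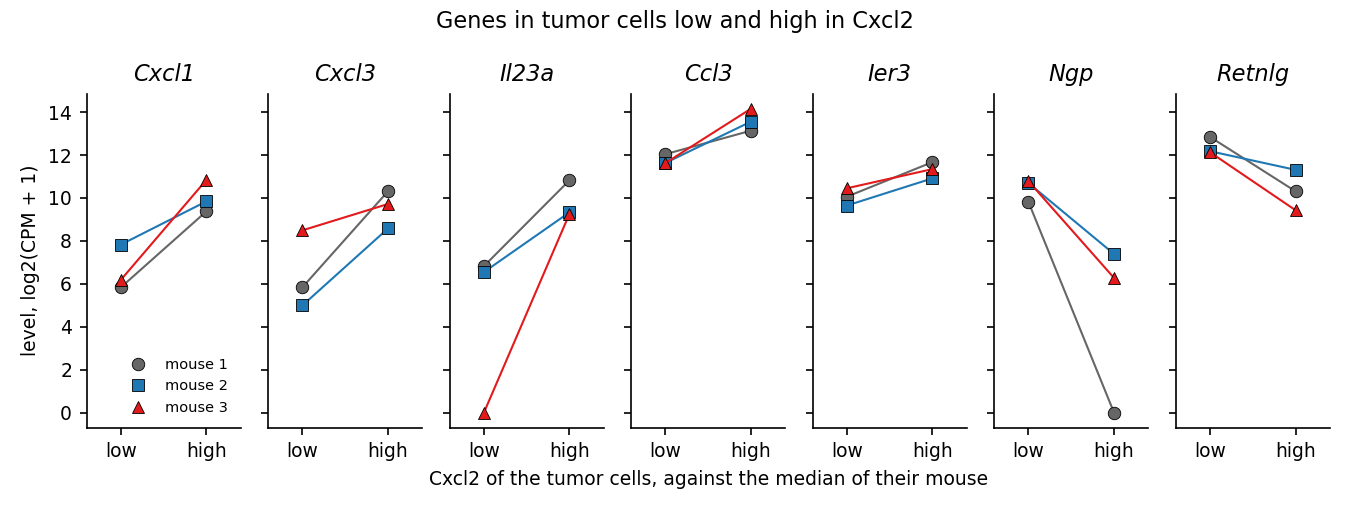
Level as log2(CPM + 1) of 7 genes in tumor cells low and high in Cxcl2, with a line for each mouse. Cxcl1, Cxcl3, Il23a, Ccl3 and Ier3 are higher in the high cells of all 3 mice, and Ngp and Retnlg lower.

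Among genes higher in the high cells of every mouse, the largest differences besides Cxcl1 and Cxcl3 were those of Il23a, which codes for a subunit of interleukin 23 (3.33, adjusted p = 2.61e-10), Ccl3, a chemokine for monocytes and lymphocytes (1.83, adjusted p = 6.18e-17), and the early response gene Ier3 (1.17, adjusted p = 1.73e-04, all edgeR). Il23a passed the low-count filter through the high cells alone, so the direction of its call is set by the filter. Of 30 inducers and regulators of NF-kB, 9 were tested, 3 were higher and 0 lower. The 3 were the cytokine genes Tnf (1.54) and Il1b (0.53) and the NF-kB inhibitor Nfkbia (0.78), and Tnf was not among the genes higher in every mouse. The median over the 9 was 0.53 against 0.00 over all genes tested. The call for Il1b was lost in 5 of 9 alternatives, that for Tnf in 3 and that for Nfkbia in 1. Of 10 neutrophil markers 8 were tested, 0 were higher, and S100a8, S100a9 and Retnlg were lower. The call for S100a9 was lost in 3 of 9 alternatives and that for S100a8 in 1. Of 12 monocyte or macrophage markers 1 was tested, Apoe, which was lower in the high cells (-1.43, adjusted p = 5.22e-04, edgeR), a call lost in 3 of 7 alternatives, and the part of such cells in the result was not tested. Ngp, a granule protein gene of immature neutrophils that was chosen after its values were seen, was lower, with a log2 difference of -3.76 (adjusted p = 1.16e-18, edgeR), at 0, 167 and 76.5 CPM in the high and 899, 1655 and 1759 CPM in the low cells. Ngp passed the low-count filter through the low cells alone, so the direction of its call is also set by the filter.

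Across all tumor cells, the genes whose level was most like that of Cxcl2 were Ccl3 (mean Pearson r over the 3 mice 0.42), Nfkbia (0.30), Ccl4 (0.26), Ier3 (0.24) and the chemokine receptor-like gene Ccrl2 (0.24), among 1150 genes. Cells of a mouse share a library and the values share their depth, so these describe the cells only. For Cxcl1 and Cxcl3 no gene reached 0.19, and Cxcl2 stood at 0.15 and 0.14 with them, too weak to rank.

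Tumor cells could not be divided by Cxcl1, Cxcl3, Cxcl10 or Cxcl16 as planned, since some mouse had fewer than 10 cells with a UMI (5, 31 and 11 for Cxcl1, and 7, 15 and 8 for Cxcl3). Without thinning, the division by Cxcl3 gave 0 of 644 genes called (0%, edgeR), with 23 at an unadjusted p under 0.05, and log2 differences of 0.64 for Cxcl2 and 0.17 for Cxcl1 (adjusted p = 0.995 for both).

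Most UMIs of Cxcl16 were in tumor cells that carried markers of another type. Of its 17 UMIs in tumor, 15 were in the 44 cells that carried markers of another type, which hold 8.96% of all tumor UMIs, and 2 in the other 797 cells. This gives 292 CPM (95% Poisson interval 164 to 482) against 3.84 CPM (0.464 to 13.9). Of the 9 cells with Cxcl16, 7 carried such markers, and in sum they held MHC class II markers at 48184 CPM and macrophage markers at 32839 CPM, against 1178 and 862 CPM in the cells without Cxcl16, with Cxcl2 at 4294 against 31238 CPM. Their median depth was 1279 UMIs, against 571.5 in the other cells. At least 2 neutrophil markers were held by 6 of the 9 cells. A cell of 2081 UMIs held 5 of the 17 UMIs of Cxcl16, and another of 5332 UMIs held 4. Whether such barcodes held more than 1 cell was not tested. The 44 cells went the other way for Cxcl2 (16030 against 31917 CPM) and Cxcl3 (19.5 against 301 CPM), and held 0 UMIs of Cxcl10.

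Cxcl10 was read in 6 tumor cells (5 of mouse 2 with 8, 4, 1, 1 and 1 UMIs, and 1 of mouse 3 with 1 UMI) and 3 blood cells, all of mouse 2, with 6, 5 and 1 UMIs. All 9 cells had at least 3 neutrophil markers and 0 carried markers of another type. Summed interferon response genes, which are induced by type I and type II interferon, stood at 8729 CPM in the tumor cells with Cxcl10 and 2277 CPM in those without, and at 8475 and 1722 CPM in blood. The share of cells with any UMI of these genes was near the same: 3 of the 6 tumor cells with Cxcl10 (50%) and 376 of the 835 without it (45.0%). In blood it was 2 of 3 (66.7%) and 851 of 1372 (62.0%). The difference in level rested on few cells, since 1 tumor cell held 19 and another 11 of the 32 UMIs. Of the blood cells, 1 held 26 of the 32. No tumor cell held Cxcl10 together with Cxcl1, Cxcl3 or Cxcl16.

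The receptors moved in different directions between the tissues. Cxcr2, the receptor of Cxcl1, Cxcl2 and Cxcl3, had a mean of 866 CPM (SD 83.1) over the tumor mice and 6001 CPM (SD 129) over the blood mice. The log2 difference was -2.78 (SE 0.12, adjusted p = 4.08e-12, edgeR), and a link to the level of its ligands was not tested. In the division of tumor cells by Cxcl2, 1 CXC receptor was tested and 0 were called. Cxcr1 was higher in tumor (1.60, adjusted p = 4.17e-04) and so was Cxcr4, the receptor of Cxcl12 that holds neutrophils in the bone marrow (1.35, adjusted p = 5.21e-04). These are the 3 of the 9 CXC receptors that passed the low-count filter. Of Cxcr3, the receptor of Cxcl10, tumor cells gave 0 UMIs and blood cells 2. Of Cxcr6, the receptor of Cxcl16, they gave 4 and 0.

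Genes upstream of the ligands, of an NF-kB list that includes inhibitors and of an interferon response list, were called in both directions between the tissues. Of 30 inducers and regulators of NF-kB, 26 were tested, 18 were higher and 2 lower, with a median log2 difference of 1.64 against -0.04 over all genes. The cytokine gene Il1a, with 89 UMIs in tumor and 0 in blood, was at least 59.4-fold higher, Tnf was higher by 6.34 (SE 0.31) and Tnfaip3, which codes for the inhibitor A20, by 5.92 (SE 0.31). Myd88, an adaptor of Toll-like and interleukin 1 receptors, and Irak4, the kinase it recruits, were lower, with log2 differences of -2.29 and -2.44. Il1a, Tnf and Tnfaip3 passed the low-count filter through their tumor counts alone, so the direction of those calls is set by the filter. Myd88 and Irak4 would not have passed it on their tumor counts alone. Other called genes of the lists may also have passed through 1 tissue, so no contrast between lists is read from the counts. Of 28 interferon response genes, 15 were tested, 5 were higher and 2 lower, with a median of 0.18. Rsad2 (3.73), Isg15 (2.11) and Ifi47 (1.49) led the higher ones, Oasl2 (-1.32) was among the lower ones, and the call for Ifi47 was lost in 14 of 17 alternatives.

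Of 10 regulators of mRNA decay, 7 were tested, 4 were higher and 0 lower, with a median of 0.64. They were led by Zc3h12a, an endonuclease that cuts inflammatory mRNAs (1.91), and Zfp36, which binds AU-rich elements (1.47), followed by the deadenylase scaffold gene Cnot1 (1.07), whose call was lost in 9 of 17 alternatives. Of 4 genes for the shedding of Cxcl16, 2 were tested: Adam17 was higher (1.28, adjusted p = 3.69e-04, edgeR), and Adam10 had a difference of 0.42 (95% interval -0.35 to 1.19, adjusted p = 0.339). All of these counts stand beside the 30.2% of all genes tested that were called higher and the 29.8% called lower, and nothing is read from them as particular to the ligands.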

How the data were processed

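Drop-seq RNA and hashtag counts of sorted tumor and blood neutrophils were analysed, grouped by tissue from the labels. The authors deposited raw UMI counts per gene and barcode and hashtag counts per barcode, with no normalization. Reads were aligned with STAR to mm10, per the submitters' processing notes. For the counter, the annotation and the barcode selection, the entry is "not given in the sources used here". Genes that a table does not list were given 0.

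Barcodes with at least 200 genes and at most 15% mitochondrial UMIs were kept and given to a mouse where 1 hashtag held at least 70% of hashtag counts. This also removes doublets of different mice; no doublet caller was run, and doublets within a mouse are not seen. Counts were summed per mouse (70612 to 385370 UMIs in tumor, 330296 to 436713 in blood) and tested with edgeR 4.0.16 (quasi-likelihood, TMM, filterByExpr, Benjamini-Hochberg, threshold 0.05) in R 4.3.3. Python 3.11.15, numpy 2.4.6, scipy 1.17.1, pandas 2.3.3 and matplotlib 3.10.9 gave the rest. Intervals and limits (3 counts) cover counting error only, at 95%. Alternatives were DESeq2 1.42.0, HTODemux (Seurat 5.3.0), other filters, thinning depths and libraries left out. The hashtag number is not stated to mark the same mouse in both tissues, so no block was used between tissues.

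The scripts were tested on simulated data: for tumor against blood, 95.7% of 94 genes changed by 4-fold and 46.9% of 98 changed by 2-fold were called, and 0.182% of 3289 unchanged genes. For the division by Cxcl2, where 10 of 276 unchanged genes (3.62%) were called, 57 of 66 genes changed by 2-fold were called. The simulated counts had the same dispersion for every gene, and only genes above a set mean count were changed. These rates therefore need not hold for members with few UMIs or with UMIs in few cells. Other genes were named by rule: up to 3 called genes with the largest and up to 3 with the smallest difference per pathway list, all CXC ligands and receptors, the 5 genes most like a member over tumor cells, and the 5 largest called differences that were higher in every mouse when cells were divided by a member. The members and lists were chosen with earlier results of these data known.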

Additional observations from a re-analysis of the deposited data

Results flagged for a closer look

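Signal for the members was also found in barcodes outside the comparisons. In tumor barcodes with 20 to 60 UMIs, Cxcl1 stood at 223.9 CPM, Cxcl2 at 16887 CPM and Cxcl3 at 123.1 CPM, against 0, 24.3 and 0 CPM in blood barcodes of the same size.

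In the 106 tumor barcodes that passed the filters and were put in no mouse, Cxcl1 stood at 1014.7 CPM (84 UMIs in 15 barcodes), Cxcl2 at 36590 CPM and Cxcl3 at 386.6 CPM. The 159 such blood barcodes held Cxcl1 at 8.02 CPM, from 1 UMI, and Cxcl2 and Cxcl3 at 0.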

How the results depend on the processing

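Cxcl1, Cxcl2 and Cxcl3 were called higher in tumor under all 17 alternatives, with log2 differences of 9.65 to 10.57, 10.44 to 10.96 and 8.63 to 9.90. Cxcl10 was called with mice assigned by HTODemux (2.29, adjusted p = 0.011) and with at most 10% mitochondrial UMIs (2.00, adjusted p = 0.049). With 1 library sum left out, Cxcl10 ran from -1.30 without tumor mouse 2 to 5.69 without blood mouse 2. Cxcl16 was not called without cells carrying markers of another type (3.14, or 3.15 with Ly6c2 and Ccr2 not counted). For Cxcl10 and Cxcl16 the values rest on few UMIs, and the cause was not tested. In the division by Cxcl2, 34 genes were called, 72 without thinning, where 868 genes were tested, and 17 (without tumor mouse 2 or 3) to 36 (without tumor mouse 1) with 1 mouse left out. Cxcl3 in that division was not called with HTODemux (1.94). Without cells of another type it was removed by the filter and has no value.

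With the replicate number as a block, the log2 differences were 10.12 for Cxcl1, 10.79 for Cxcl2, 9.71 for Cxcl3, 0.48 for Cxcl10 and 5.58 for Cxcl16, and the call changed for no member; 1973 genes were called in place of 2205. Same-numbered samples deviated with r of 0.023, 0.009 and -0.023, and not every sample correlated best with its own number. The division by Cxcl2 called 29 genes without the block. Precision is limited by the 106 cells of tumor mouse 1 and by the counts of Cxcl10 and Cxcl16. The planned divisions by Cxcl1, Cxcl3, Cxcl10 and Cxcl16 at equal depth could not be fitted.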
